A study of Mus musculus with 2 samples.

Results

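A set of 7 genes of the phosphoinositide 3-kinase (PI3K) pathway were followed in single cells sorted from brains of control mice and mice with an impaired Disc1 gene. These were the regulatory subunits Pik3r1 and Pik3r5, the catalytic subunits Pik3ca, Pik3cd and Pik3cg, the adaptor Pik3ap1 and the lipid phosphatase Inpp5d. They were matched by symbol, and all 7 had 1 row each among the 32285 genes of the count tables. No other gene of the count tables overlapped any of them on either strand.

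PI3K enzymes of class I add a phosphate to a membrane lipid and so make phosphatidylinositol trisphosphate (PIP3), which draws kinases and guanine exchange factors to the membrane. A catalytic subunit works as a pair with a regulatory subunit. The alpha, beta and delta catalytic subunits pair with Pik3r1 and its relatives, and of these alpha and delta answer to tyrosine kinases. The gamma subunit Pik3cg pairs with Pik3r5 or Pik3r6 and answers to G-protein-coupled receptors. Inpp5d (SHIP1) removes a phosphate from PIP3 and is a blood-lineage enzyme that microglia express. In microglia the pathway lies downstream of purine and chemokine receptors, which steer the movement of their processes, and of immune receptors such as Trem2.

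The study asked how impairment of the Disc1 locus changes microglia. Disc1 LI/LI mice are homozygous for a locus impairment allele of Disc1, and Disc1 WT/WT littermates were the controls. Brains of 6 males of 23 weeks were pooled per genotype, dissociated with actinomycin D present to stop new transcription, and sorted for CD45low CD11b+ cells, so each genotype was 1 library of 1 pool. No test between genotypes was possible without replicate libraries, and every interval below is an exact 95% interval for counting error only. Libraries were made with 1 of 2 droplet chip versions, and which library used which is not given, so chip, pool and genotype cannot be told apart.

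Levels are given as counts of unique molecular identifiers (UMIs) scaled to a total of 1000000 in each class of cells (CPM). Of 14849 cells kept, 7032 were from the Disc1 WT/WT library and 7817 from the Disc1 LI/LI library, with 33601957 and 47731571 UMIs in all barcodes, and 12 barcodes were shared. Disc1 itself had 642 UMIs (19.1 CPM) in the Disc1 WT/WT library and 22 (0.461 CPM) in the Disc1 LI/LI library, matching the labels. Both libraries are labelled microglia. Cells with at least 0.5% of UMIs from 6 microglia markers and under 1% from S100a8 and S100a9 made up 6180 cells (87.9%) of the Disc1 WT/WT library and 1950 cells (24.9%) of the Disc1 LI/LI library. Cells with at least 3% of UMIs from S100a8 and S100a9, here called neutrophils, were 116 (1.65%) and 3622 (46.3%), and the other cells were 736 (10.5%) and 2245 (28.7%). Of markers outside the rule, 8 of microglia summed to 106571 and 130734 CPM in the microglia of the 2 libraries, and 9 of neutrophils to 84155 and 98392 CPM in the neutrophils. The Disc1 LI/LI library therefore went against its label in most cells. A UMI of S100a8 or S100a9 was present in 12.2% of the microglia of the Disc1 WT/WT library and 91.9% of those of the Disc1 LI/LI library. Microglia markers that the rule did not use were found in neutrophils too. All 8 of them (Cx3cr1, C1qa, Sall1 and others) stood at 18.9% to 26.8% of their microglial level in Disc1 WT/WT neutrophils and at 3.47% to 4.15% in Disc1 LI/LI neutrophils. Values for classes other than microglia are therefore also given for cells without a UMI of the 6 markers, a choice made after seeing the data.

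Promoters of all 7 genes were matched by symbol in a RefSeq table on GRCm38.p6, which held 11 promoters for them, each running from 250 bases before to 50 after the annotated start. Those of the 5 genes with higher levels in microglia than in both other classes are shown (the first of 2 for Pik3cg and Pik3r1), with that of Pik3r5, which was within 2-fold of its microglial level in both other classes, for contrast. Capitals mark GAGGAA or its reverse complement TTCCTC, letters found in sites for PU.1, an ETS factor that myeloid cells depend on. The shorter core of ETS sites, GGAA, is not marked by itself and was in 96.0% of all promoters of the table on either strand.
Inpp5d, chr1:87620062-87620361, plus strand: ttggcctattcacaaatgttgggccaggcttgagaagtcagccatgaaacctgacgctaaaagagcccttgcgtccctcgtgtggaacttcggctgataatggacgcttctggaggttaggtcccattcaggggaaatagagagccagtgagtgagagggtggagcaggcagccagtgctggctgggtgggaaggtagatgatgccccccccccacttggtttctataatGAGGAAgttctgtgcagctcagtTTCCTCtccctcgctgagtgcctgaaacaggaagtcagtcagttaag
Pik3cg, chr12:32208610-32208909, minus strand: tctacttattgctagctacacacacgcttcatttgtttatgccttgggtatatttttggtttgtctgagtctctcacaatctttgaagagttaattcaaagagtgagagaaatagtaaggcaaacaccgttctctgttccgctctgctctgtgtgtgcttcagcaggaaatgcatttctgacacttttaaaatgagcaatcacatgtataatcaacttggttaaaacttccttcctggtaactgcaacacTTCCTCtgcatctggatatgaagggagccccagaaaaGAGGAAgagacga
Pik3ap1, chr19:41385053-41385352, minus strand: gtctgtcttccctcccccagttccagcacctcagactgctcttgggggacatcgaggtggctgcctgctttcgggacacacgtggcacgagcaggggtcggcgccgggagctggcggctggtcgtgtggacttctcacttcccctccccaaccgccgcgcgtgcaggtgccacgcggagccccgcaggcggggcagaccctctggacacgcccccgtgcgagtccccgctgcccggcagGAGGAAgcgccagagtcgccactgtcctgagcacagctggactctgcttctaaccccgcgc
Pik3r1, chr13:101768168-101768467, minus strand: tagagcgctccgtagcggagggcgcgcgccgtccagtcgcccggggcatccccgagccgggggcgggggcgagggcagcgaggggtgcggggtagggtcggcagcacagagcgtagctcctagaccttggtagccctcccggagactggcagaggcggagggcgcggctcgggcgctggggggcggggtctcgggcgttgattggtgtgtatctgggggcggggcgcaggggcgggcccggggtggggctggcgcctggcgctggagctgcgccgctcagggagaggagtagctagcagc
Pik3ca, chr3:32396815-32397114, plus strand: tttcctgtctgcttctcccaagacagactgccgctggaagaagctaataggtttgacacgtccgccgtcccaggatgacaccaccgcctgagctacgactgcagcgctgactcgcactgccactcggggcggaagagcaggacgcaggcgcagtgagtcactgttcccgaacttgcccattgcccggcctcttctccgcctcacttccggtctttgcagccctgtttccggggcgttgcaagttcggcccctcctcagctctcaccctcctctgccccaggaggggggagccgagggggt
Pik3r5, chr11:68431875-68432174, plus strand: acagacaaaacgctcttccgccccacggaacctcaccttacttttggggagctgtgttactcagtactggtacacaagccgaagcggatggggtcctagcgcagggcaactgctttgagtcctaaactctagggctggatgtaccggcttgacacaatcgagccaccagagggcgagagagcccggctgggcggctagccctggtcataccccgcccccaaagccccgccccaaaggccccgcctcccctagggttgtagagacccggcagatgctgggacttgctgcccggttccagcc
The letters began 20 bases before and 3 bases after the start of Inpp5d, at the start of Pik3cg and 37 bases after it, and 11 bases before the start of Pik3ap1. They were in 4 of the 11 promoters of the 7 genes, 2 of them overlapping windows of Pik3cg, and in 28.3% of all 32851 promoters of the table. The longer string GAGGAAGT, which contains them, was in 3 of the 11, those of Inpp5d and Pik3cg, and in 3.20% of all promoters. Neither string was in the promoters of Pik3r1 or Pik3ca, which were also higher in microglia by CPM, nor in those of Pik3r5 or Pik3cd, within these windows. For Pik3ca the higher level in microglia did not hold in every setting given below. The promoters also differed in CpG dinucleotides, of which the median promoter held 7. The shown promoters of Pik3cg and Inpp5d held 4 and 6, that of Pik3r5 held 16, that of Pik3ca 20, that of Pik3ap1 26 and that of Pik3r1 34.

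The regulatory subunit Pik3r1 (chromosome 13, 101680563 to 101768217, minus strand, on mm10) stabilizes the catalytic subunits and holds them at phosphorylated receptors. In the Disc1 WT/WT library it was at 266 CPM (260 to 272) in microglia, 92.9 (71.2 to 119) in neutrophils and 92.2 (82.4 to 103) in other cells. In the Disc1 LI/LI library it was at 207 CPM (197 to 217), 31.9 (29.6 to 34.4) and 34.6 (31.9 to 37.4) in the same classes. Microglia stood above both other classes in each library, and neutrophils and other cells did not differ beyond their intervals. Pik3r5 (chromosome 11, 68432121 to 68497849, plus strand), a regulatory partner of the gamma subunit, was scarce in every class. Its 3 levels were 26.4, 24.0 and 14.7 CPM in the Disc1 WT/WT library and 27.4, 22.2 and 21.8 CPM in the Disc1 LI/LI library, in the same order of classes. The other cells stood below microglia in both libraries, but in those of the Disc1 WT/WT library without a UMI of the 6 microglia markers Pik3r5 was at 30.6 CPM (17.1 to 50.4), and its log2 ratio over microglia turned from -0.84 to 0.21. That ratio in the Disc1 LI/LI library was -0.33 by CPM and 0.040 with scaling by trimmed means (TMM).

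Among the catalytic subunits, Pik3ca (chromosome 3, 32397671 to 32468486, plus strand) is the alpha form found in most tissues. It was at 51.5 CPM (49.0 to 54.2) in Disc1 WT/WT microglia, 18.0 (9.29 to 31.4) in neutrophils and 33.9 (28.1 to 40.6) in other cells, and at 42.0 (37.7 to 46.7), 16.5 (14.9 to 18.4) and 19.6 (17.6 to 21.8) in the Disc1 LI/LI library. Microglia were highest in both libraries. In the other cells of the Disc1 WT/WT library without a marker UMI, however, Pik3ca was at 55 CPM (36.3 to 80.1), and its log2 ratio over microglia turned from -0.60 to 0.10. Pik3cd (chromosome 4, 149649168 to 149702571, minus strand), the delta form that white blood cells are rich in, showed no such order. Its levels were 58.5 CPM (55.8 to 61.4), 61.5 (44.1 to 83.4) and 52.0 (44.8 to 60.1) in the Disc1 WT/WT library and 45.4 (40.9 to 50.3), 47.9 (45.0 to 50.9) and 54.7 (51.3 to 58.2) in the Disc1 LI/LI library. The 3 intervals overlapped in the Disc1 WT/WT library, and in the Disc1 LI/LI library the interval of the other cells lay above that of microglia. Pik3cg (chromosome 12, 32173473 to 32208659, minus strand), the gamma form, was at 131 CPM (127 to 135) in Disc1 WT/WT microglia and at 60.0 (42.8 to 81.6) and 60.2 (52.4 to 68.9) in neutrophils and other cells. In the Disc1 LI/LI library it was at 95.0 CPM (88.4 to 102), 32.8 (30.4 to 35.3) and 28.5 (26.1 to 31.1). The interval of microglia overlapped neither of the others in either library.

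Pik3ap1 (chromosome 19, 41272377 to 41385102, minus strand), also called BCAP, is an adaptor that binds Pik3r1 below B-cell and Toll-like receptors. It was at 101 CPM (97.4 to 105) in Disc1 WT/WT microglia, 49.5 (34.0 to 69.5) in neutrophils and 59.1 (51.3 to 67.7) in other cells. In the Disc1 LI/LI library the levels were 73.3 CPM (67.6 to 79.4), 18.6 (16.8 to 20.5) and 15.2 (13.4 to 17.1). Inpp5d (chromosome 1, 87620312 to 87720507, plus strand) takes the 5-phosphate off PIP3. Inpp5d was at 438 CPM (431 to 446) in Disc1 WT/WT microglia, 136 (110 to 167) in neutrophils and 139 (127 to 152) in other cells, and at 358 (345 to 371), 50 (47.0 to 53.0) and 57.9 (54.4 to 61.5) in the Disc1 LI/LI library. For both genes the microglia of each library stood above the other classes of that library.

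**Figure D1:**
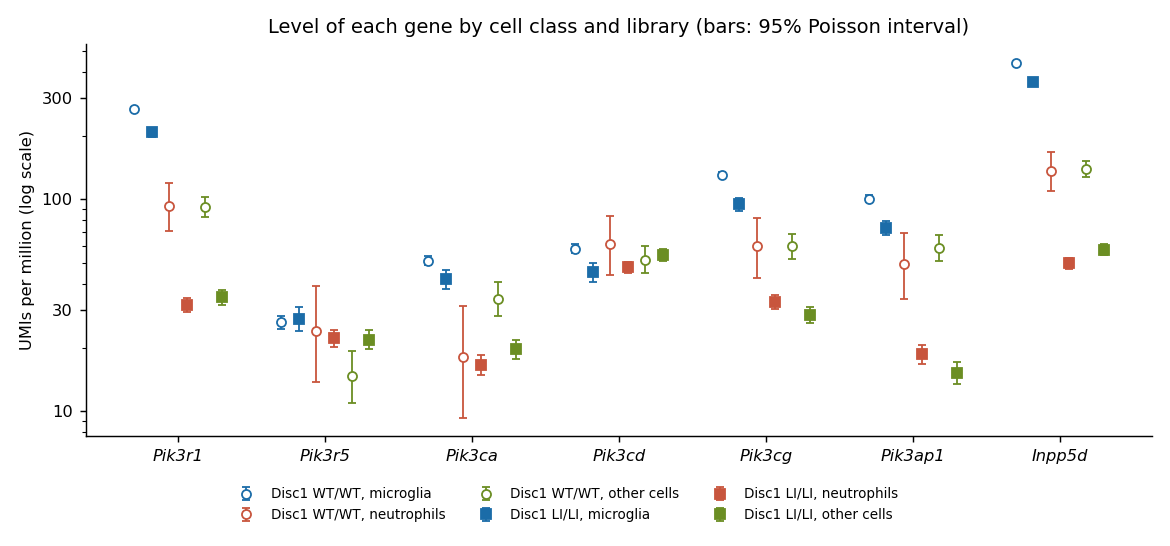
Level of each of the 7 genes (CPM, log scale) in microglia, neutrophils and other cells of the Disc1 WT/WT (open circles) and Disc1 LI/LI (filled squares) libraries, with exact 95% Poisson intervals. Microglia are highest for Pik3r1, Pik3ca, Pik3cg, Pik3ap1 and Inpp5d, while Pik3cd lies between 45.4 and 61.5 and Pik3r5 between 14.7 and 27.4 in all classes.

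Between the genotypes, the microglia of the Disc1 LI/LI library had lower levels of 6 of the 7 genes. The log2 ratio of Disc1 LI/LI over Disc1 WT/WT microglia was -0.47 (-0.58 to -0.35) for Pik3cg, -0.46 (-0.59 to -0.33) for Pik3ap1, -0.37 (-0.53 to -0.20) for Pik3cd, -0.36 (-0.44 to -0.29) for Pik3r1, -0.30 (-0.47 to -0.13) for Pik3ca and -0.29 (-0.35 to -0.24) for Inpp5d. Pik3r5 was the exception at 0.056 (-0.17 to 0.27). Levels lower by at least 20% were found for 4 genes (Pik3r1, Pik3cd, Pik3cg, Pik3ap1), and Pik3ca and Inpp5d stood just outside that limit. Of 3556 genes with at least 50 CPM in either library, 34.3% were as much lower and 6.72% were at least 25% higher, which is the same fold upward, with a median log2 ratio of -0.12. The median of the 7 genes was -0.36. TMM scaling, which moved every ratio up by 0.13, left Pik3cg and Pik3ap1 (each at -0.33) past the limit, beside 22.9% of all genes lower and 19.3% higher.

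The ratio moved with gene length over all genes. Among the 889 longest genes (56516 bases or more from start to end), the median log2 ratio was -0.47 and 70.5% were at least 20% lower in the Disc1 LI/LI library. Among the 889 shortest (8995 bases or less), the median was 0.20 and 4.84% were as much lower. Pik3r1, Pik3r5, Pik3ca, Pik3ap1 and Inpp5d are in the longest group, and all but Pik3r5 had ratios between -0.46 and -0.29, above the median of that group. Pik3cd and Pik3cg are in the next longest group of 889 genes, with a median of -0.26 and 42.6% as much lower, and at -0.37 and -0.47 they lay below it. The part of gene length in the lower levels was not tested.

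**Figure D2:**
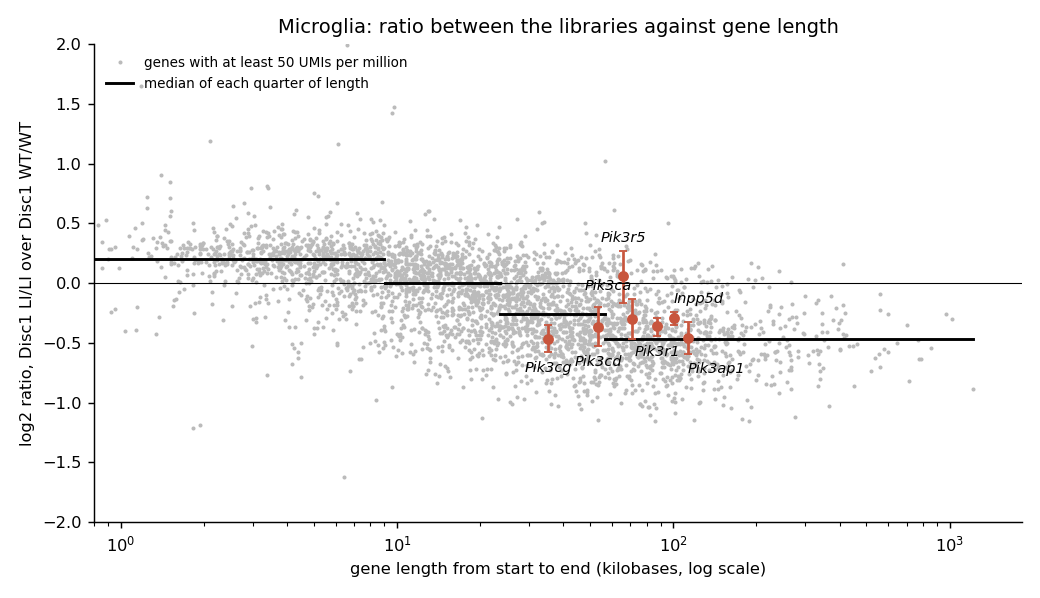
Log2 ratio of CPM in microglia, Disc1 LI/LI over Disc1 WT/WT, against gene length in kilobases (log scale). Grey points are the genes with at least 50 CPM in either library (14 lie outside the axis), black lines are medians of 4 groups by length, and red points are the 7 genes with 95% intervals. The medians fall from 0.20 in the shortest genes to -0.47 in the longest, and Pik3r1, Pik3ca, Pik3ap1 and Inpp5d lie above the line of the longest group.

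Neutrophil RNA was also unequal between the microglia of the libraries. The 9 neutrophil markers that the rule did not use summed to 157 CPM in Disc1 WT/WT microglia and 731 CPM in Disc1 LI/LI microglia. Csf3r alone gave 143 and 123 CPM of these sums, at 53.4% and 56.2% of its level in neutrophils of the same library. The median of the 9 markers was 0.0226% and 0.776% of their neutrophil level, so the sums understate how unequal the other markers were. Microglia without any UMI of S100a8 or S100a9, a choice made after seeing the data, numbered 5428 and 157. In them Pik3r1 was at 267 and 201 CPM (164 to 245), Pik3ap1 at 100 and 65.1 CPM (44.5 to 91.9), and Pik3ca at 51.2 and 38.6 CPM (23.3 to 60.3). These 3 genes were at least 20% lower in the Disc1 LI/LI library, Pik3ca on 19 UMIs there and with an interval that held the control level. The share of all genes as much lower was not counted in these cells, so the 3 have no background beside them. Inpp5d at 438 and 366 CPM (315 to 424) was lower but within the limit, and Pik3cg at 131 and 110 CPM (82.5 to 143) was no longer past it. Pik3cd turned from lower to higher, from 59.4 CPM in the controls to 71.2 CPM (49.6 to 99.0), on 35 UMIs, in Disc1 LI/LI microglia.

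Set against microglia of the same library, neutrophils had less of most of these genes. In the Disc1 LI/LI library, which held nearly all neutrophils, the log2 ratio of neutrophils over microglia was -2.84 (-2.94 to -2.74) for Inpp5d, -2.70 (-2.83 to -2.57) for Pik3r1, -1.98 (-2.17 to -1.80) for Pik3ap1, -1.54 (-1.68 to -1.39) for Pik3cg and -1.34 (-1.56 to -1.13) for Pik3ca. These 5 genes were at least 2-fold lower, as were 53.7% of 3479 genes, with 14.5% at least 2-fold higher and a median log2 ratio of -1.13. Inpp5d and Pik3r1 lay below the median by the most, at the 15.5 and 16.6 percentiles of all genes. Pik3cd at 0.076 (-0.10 to 0.25) and Pik3r5 at -0.31 (-0.54 to -0.072) lay above it, at the 77.8 and 71.4 percentiles. S100a8 and S100a9 made up a median of 33.0% of the UMIs of these neutrophils, and TMM scaling moved every ratio up by 1.32. On that scale 2 of the 7 genes, Inpp5d (-1.52) and Pik3r1 (-1.38), were at least 2-fold lower, beside 21.5% of all genes. Pik3cd (1.40) and Pik3r5 (1.01) were then at least 2-fold higher, beside 28.8% of all genes, and Pik3ca (-0.024) and Pik3cg (-0.22) were near 0.

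In the Disc1 WT/WT library the same 5 genes were at least 2-fold lower in its 116 neutrophils, with log2 ratios of -1.68 for Inpp5d, -1.52 for Pik3r1, -1.52 for Pik3ca, -1.13 for Pik3cg and -1.03 for Pik3ap1. Of 3909 genes, 47.7% were as much lower and 13.5% as much higher, with a median log2 ratio of -0.94. With TMM scaling none of the 7 was past 2-fold, beside 18.3% of genes lower and 22.2% higher. All 7 genes stood above the level of the microglia markers in these neutrophils. The lowest was Inpp5d at 31.1% of its microglial level, against a median of 20.1% for the 8 markers, and in Disc1 LI/LI neutrophils Inpp5d was again lowest at 14.0%, against a median of 3.77%. Pik3cd was at 105% of its microglial level in the neutrophils of both libraries.

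Neutrophils without a UMI of the 6 microglia markers numbered 60 in the Disc1 WT/WT library and 2780 in the Disc1 LI/LI library. In them Inpp5d was at 68.8 CPM (40.8 to 109) and 41.5 (38.2 to 45.0), Pik3r1 at 42.1 (21.0 to 75.2) and 25.2 (22.7 to 28.0), and Pik3cd at 61.2 (35.0 to 99.3) and 51.5 (47.9 to 55.4). For these 3 genes the intervals of the 2 libraries overlapped. In the Disc1 WT/WT library Inpp5d and Pik3r1 were thus lower than in all neutrophils, and their log2 ratios over microglia went from -1.68 to -2.67 and from -1.52 to -2.66. Pik3cg was the exception, at 65.0 CPM (37.9 to 104) on 17 UMIs in the Disc1 WT/WT library and 33.0 CPM (30.1 to 36.1) in the Disc1 LI/LI library.

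**Figure D3:**
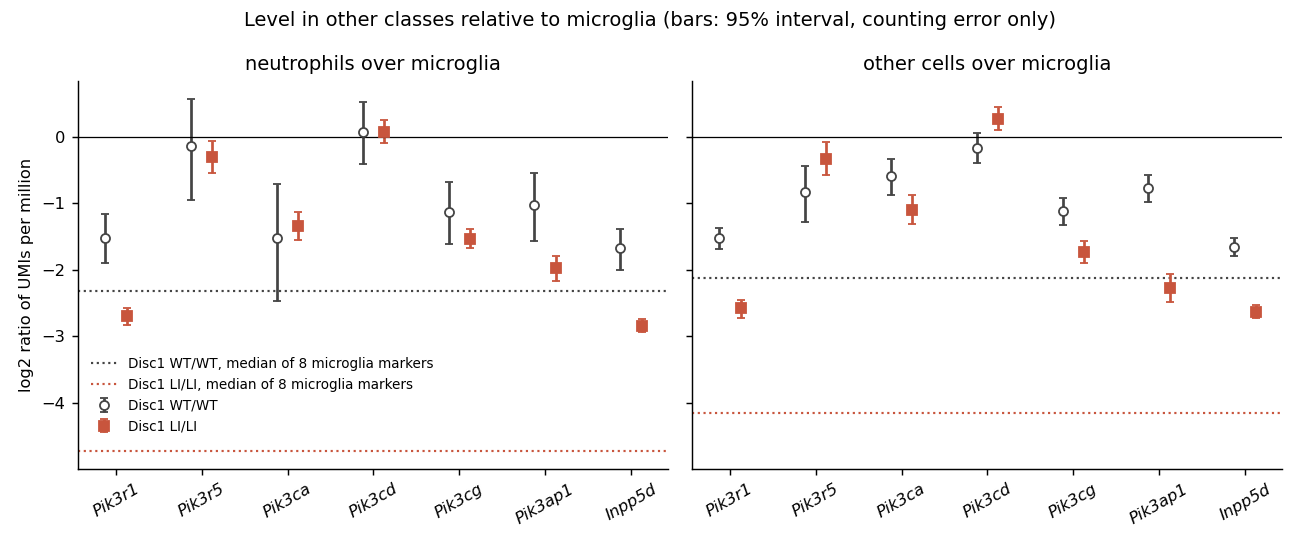
Log2 ratio of CPM in neutrophils (left) and other cells (right) over microglia of the same library, for Disc1 WT/WT (open circles) and Disc1 LI/LI (filled squares), with 95% intervals. Dotted lines mark the median of 8 microglia markers that did not define the classes. Pik3cd lies nearest 0, followed by Pik3r5 except in other cells of the Disc1 WT/WT library, where Pik3ca (-0.60) and Pik3ap1 (-0.77) lie nearer than Pik3r5 (-0.84). Pik3r1 and Inpp5d of the Disc1 LI/LI library lie near -2.70 and -2.84 in neutrophils, and all points lie above the line of their library.

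The other cells differed from microglia less evenly. In the Disc1 LI/LI library 5 of the 7 genes were at least 2-fold lower in them, with log2 ratios of -2.63 for Inpp5d, -2.58 for Pik3r1, -2.27 for Pik3ap1, -1.74 for Pik3cg and -1.10 for Pik3ca. Of 3566 genes, 26.7% were as much lower and 17.4% as much higher. Pik3cd was at 0.27 (0.095 to 0.44), short of 2-fold. Set against the 157 microglia without a UMI of S100a8 or S100a9, the ratio of Pik3cd turned to -0.38 in other cells, and it went from 0.076 to -0.57 in neutrophils. In the Disc1 WT/WT library Inpp5d (-1.66), Pik3r1 (-1.53) and Pik3cg (-1.12) were at least 2-fold lower, beside 15.5% of 3818 genes lower and 10.6% higher. TMM scaling moved these ratios up by 0.37 and 0.12 and left 4 and 3 of the 7 genes past 2-fold, Pik3ca being the one lost. The background then was 18.8% lower and 25.1% higher in the Disc1 LI/LI library, and 12.4% lower and 11.9% higher in the Disc1 WT/WT library. With a microglia limit of 1% in place of 0.5%, more cells with microglia markers counted as other cells and none of the 7 genes was past 2-fold in the Disc1 WT/WT library. Other cells without a UMI of the 6 microglia markers numbered 141 in the Disc1 WT/WT library and 1394 in the Disc1 LI/LI library. In them Inpp5d was at 91.7 CPM (66.9 to 123) and 50.7 (46.4 to 55.3), Pik3r1 at 97.9 (72.1 to 130) and 29.9 (26.6 to 33.5), Pik3cg at 48.9 (31.3 to 72.8) and 27.2 (24.1 to 30.6), and Pik3ap1 at 51.0 (33.0 to 75.2) and 11.6 (9.61 to 13.9). All 4 stayed below microglia of their library. Pik3ca, Pik3r5 and Pik3cd were at 20.2, 24.8 and 60.1 CPM in such cells of the Disc1 LI/LI library, and Pik3cd at 61.2 CPM (41.3 to 87.3) in those of the Disc1 WT/WT library, where its log2 ratio turned from -0.17 to 0.063.

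Sorting the other cells by markers, with at least 3 of a cell type's markers required and more than of any other type, gave 4 groups of at least 50 cells in the Disc1 LI/LI library and 1 in the Disc1 WT/WT library whose leading genes matched their name. Many of those leading genes were themselves markers used for the sorting, so the match with the name is partly fixed by the sorting. This way of grouping was set after seeing the data. Of the 736 other cells of the Disc1 WT/WT library, 423 sorted to microglia markers, with Inpp5d at 168 CPM (151 to 188). In the Disc1 LI/LI library 267 cells sorted to microglia markers and 75 to neutrophil markers. The leading genes of these groups did not match those markers, and they are left out below. The largest named group held 1231 monocyte-like cells of the Disc1 LI/LI library, led by Fn1, Vcan and Ccr2. In them Pik3cd was at 66.7 CPM (61.8 to 71.9), above the 45.4 CPM of all microglia of that library but within the interval of those without a UMI of S100a8 or S100a9 (71.2 CPM, 49.6 to 99.0). Pik3r1 was at 23.4 CPM (20.6 to 26.6) and Pik3ap1 at 8.5 CPM (6.81 to 10.5), the lowest of Pik3ap1 in any group here. The monocyte-like cells thus stood below microglia in Pik3r1, Pik3ap1 and Inpp5d, which was at 48.4 CPM (44.3 to 52.9). Pik3r1 stood out in 60 NK cell-like cells, led by Gzma and Ncr1. It was at 209 CPM (151 to 282) there, on 43 UMIs, the level of microglia, while Inpp5d was at 72.9 CPM (40.8 to 120). In 111 B cell-like cells, led by immunoglobulin genes and Ms4a1, Pik3ap1 was at 35.4 CPM (21.0 to 55.9), above the monocyte-like cells and below microglia. In 114 antigen-presenting cell-like cells, led by H2-Aa, Flt3 and Cd209a, Pik3ap1 was at 22.2 CPM (13.8 to 34.0) and Pik3r1 at 32.8 CPM (22.3 to 46.6).

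The 74 border macrophage-like cells, led by Lyve1, Folr2 and Cd209f, were the only named group of the Disc1 WT/WT library. How they differ from the groups of the Disc1 LI/LI library cannot be told apart from the library. Pik3cg was at 114 CPM (77.8 to 161) and Pik3ap1 at 74.6 CPM (46.2 to 114) in them, and both intervals reached the level of microglia of that library. Inpp5d at 121 CPM (83.7 to 169) and Pik3r1 at 107 CPM (71.9 to 152) were below microglia. Inpp5d was at 136 CPM in neutrophils and 139 CPM in all other cells of that library, both within its interval here. These cells had a median of 0.228% of UMIs from the 6 microglia markers, and the part of microglial RNA in their levels was not tested.

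**Figure D4:**
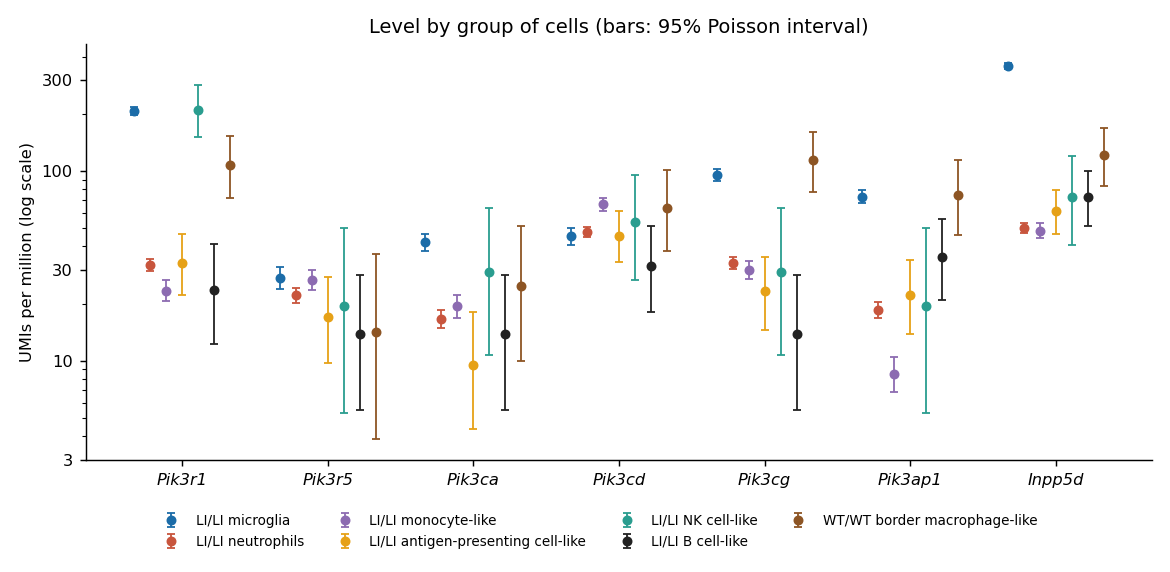
Level of each gene (CPM, log scale) in microglia and neutrophils of the Disc1 LI/LI library and in 5 groups of other cells named from their markers, with exact 95% Poisson intervals. Pik3r1 is as high in NK cell-like cells (209) as in microglia (207), Pik3ap1 is lowest in monocyte-like cells (8.5), and Pik3cd has its highest value in monocyte-like cells (66.7), inside the intervals of the NK cell-like and border macrophage-like cells.

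Cells with under 1% of UMIs from S100a8 and S100a9 were grouped by their share of UMIs from the 6 microglia markers. Over the groups given here, 4 of the genes rose in both libraries. The same markers define microglia at 0.5%, so a rise across that limit partly restates the difference between classes. The share of all genes that rise in this way was not counted. In the Disc1 LI/LI library Inpp5d went from 50.7 CPM in cells without a marker UMI to 160 CPM at 0.25% to 0.5% and 388 CPM at 1% to 1.5%. Pik3r1 went from 29.8 to 106 and 224 CPM over the same groups, Pik3ap1 from 11.7 to 65.5 and 78.0 CPM, and Pik3cg from 27.5 to 59.3 and 100 CPM. Pik3ap1 thus gained most of its level at a lower marker share than Pik3r1 and Inpp5d did. Pik3cd did not follow, at 60.7, 47.9 and 46.6 CPM. Pik3r5 did not either, at 25.2, 23.9 and 26.9 CPM. The Disc1 WT/WT library gave rises in the same 4 genes, with Inpp5d at 90.4, 199 and 459 CPM. From cells without a marker UMI to those with up to 0.1%, none of the 4 rose in either library. Inpp5d went from 90.4 to 78.9 CPM in the Disc1 WT/WT library and from 50.7 to 43.8 CPM in the Disc1 LI/LI library. Pik3ca rose over these groups in the Disc1 LI/LI library only, at 20.4, 29.1 and 46.4 CPM. In the Disc1 WT/WT library it was at 55.4 (36.5 to 80.7), 37.3 and 56.4 CPM, the first on 27 UMIs. Cells of that library with a marker share of up to 0.1% had 21.4 CPM (13.9 to 31.7), so the difference from the Disc1 LI/LI library rests on the cells without a marker UMI. At 1% to 1.5%, Pik3r1 was at 276 and 224 CPM and Pik3cg at 137 and 100 CPM in the Disc1 WT/WT and Disc1 LI/LI libraries. Both genes were thus also lower in the Disc1 LI/LI library among cells in that range of marker share. At 1.5% or more, Pik3r1 was at 277 CPM (262 to 293) and 206 CPM (175 to 240) in the same order of libraries. The intervals of Pik3cg overlapped there, at 130 CPM (120 to 142) and 122 CPM (98.8 to 149).

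**Figure D5:**
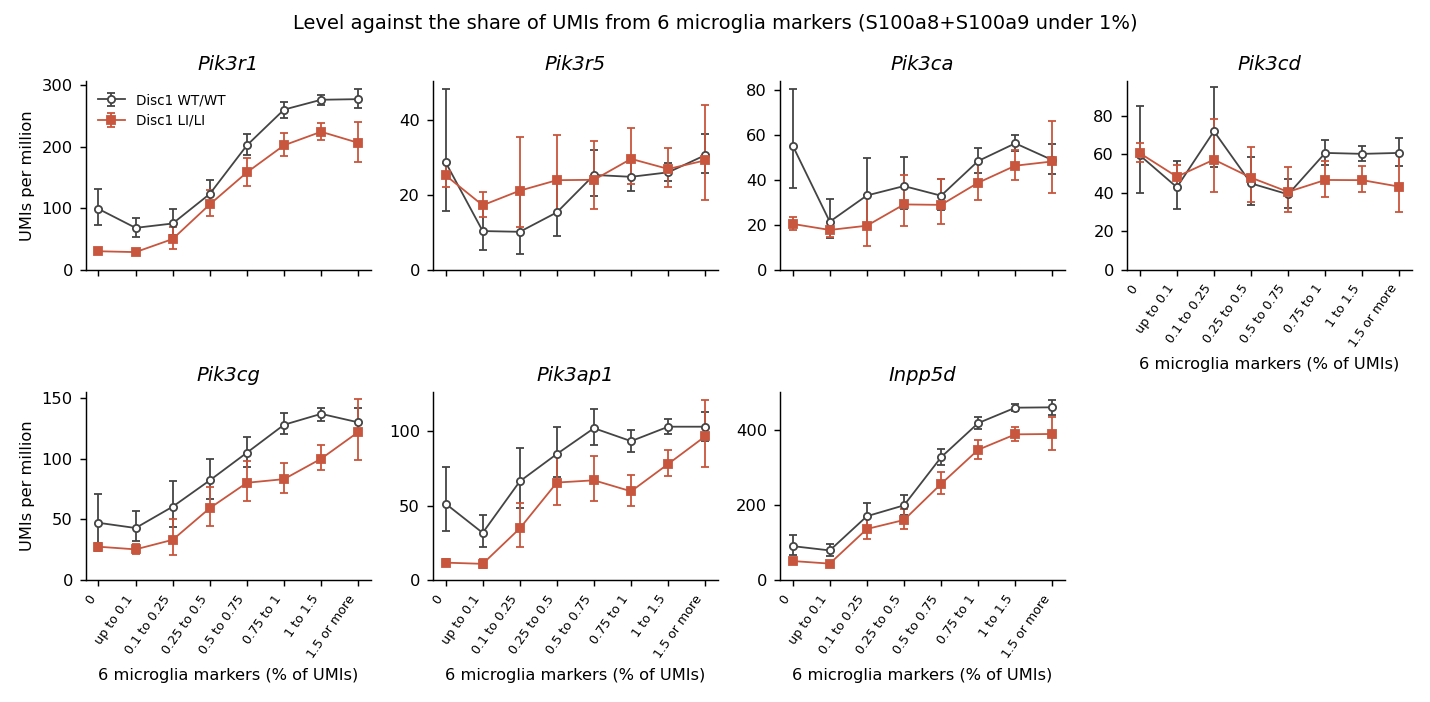
Level (CPM) of the 7 genes in cells grouped by the percent of UMIs from 6 microglia markers, for Disc1 WT/WT (open circles) and Disc1 LI/LI (filled squares), with exact 95% Poisson intervals. Pik3r1, Pik3ca, Pik3cg, Pik3ap1 and Inpp5d rise from left to right in the Disc1 LI/LI library, though not at every step, while Pik3cd and Pik3r5 do not.

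The make-up of each enzyme family shifted between classes and also between the libraries, in microglia too. Of UMIs from the 4 class I catalytic genes (Pik3ca, Pik3cb, Pik3cd, Pik3cg), Pik3cg gave 42.7% (41.6 to 43.7) in Disc1 WT/WT microglia and 43.0% (40.7 to 45.3) in Disc1 LI/LI microglia, while the beta form Pik3cb gave 21.5% (20.7 to 22.4) and 17.5% (15.7 to 19.3). In Disc1 LI/LI neutrophils the share of Pik3cg was 23.7% (22.1 to 25.2), that of Pik3cb 29.8% (28.2 to 31.5) and that of Pik3cd 34.6% (32.9 to 36.3). In the other cells of that library Pik3cd reached 47.3% (45.1 to 49.4), against 27.9% (24.5 to 31.5) in those of the Disc1 WT/WT library. The delta form thus held the largest share outside microglia of that library. Of the UMIs from 5 regulatory genes, Pik3r1 gave 82.8% (82.0 to 83.5) and 79.0% (77.2 to 80.7) in the microglia of the 2 libraries and 49.7% (47.0 to 52.3) in Disc1 LI/LI neutrophils, where Pik3r5 gave 34.5% (32.0 to 37.0). In Disc1 WT/WT neutrophils Pik3r1 gave 72.1% (61.4 to 81.2), and in other cells it gave 70.7% (66.3 to 74.8) in the Disc1 WT/WT library and 43.9% (41.3 to 46.5) in the Disc1 LI/LI library. These are shares of 3-prime tags and not of protein, and genes can differ in how well a tag is captured. In Disc1 WT/WT neutrophils without a UMI of the 6 microglia markers, Pik3r1 was at 42.1 CPM and Pik3r5 at 22.9 CPM. All neutrophils of that library had 92.9 and 24.0 CPM. The other cells were unlike mixtures, with 423 of 736 sorted to microglia markers in the Disc1 WT/WT library. In the Disc1 LI/LI library 1231 of 2245 were monocyte-like. The part of these differences in the shifts between libraries was not tested.

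In the share of cells with a UMI, Inpp5d was found in 80.5% (4972 of 6180) of Disc1 WT/WT and 72.2% (1407 of 1950) of Disc1 LI/LI microglia, and in 22.1% (801 of 3622) of Disc1 LI/LI neutrophils. Median depth was 4271, 3787.5 and 4194 UMIs in these classes. After each cell was thinned to 1000 UMIs the shares were 35.2% (34.0 to 36.4), 29.3% (27.3 to 31.4) and 6.05% (5.30 to 6.88). Pik3r1 went from 64.4%, 53.0% and 15.1% to 22.8%, 18.4% and 3.73% in the same way. Pik3cd was in 5.53% (4.97 to 6.13), 4.14% (3.30 to 5.12) and 6.19% (5.43 to 7.03) of thinned cells, so its share was higher in Disc1 LI/LI neutrophils than in microglia of that library. By CPM the log2 ratio of these 2 classes was 0.076 (-0.10 to 0.25). Against microglia without a UMI of S100a8 or S100a9 it was -0.57. Pik3r5, the scarcest in microglia, was in 2.57%, 2.64% and 3.26%.

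Of 54 other genes of the pathway, 19 had at least 50 CPM in microglia of either library, and 11 of these were at least 20% lower and 1 at least 25% higher in the Disc1 LI/LI library, beside 34.3% and 6.72% of all genes. Their median log2 ratio was -0.40, against -0.36 for the 7 genes and -0.12 for all genes. Among the 889 longest genes the median was -0.47 and 70.5% were at least 20% lower. The part of gene length in the ratios of these 19 genes was not tested. The 5 lowest were Rictor, a subunit of an mTOR complex, at -0.80, the class II kinase Pik3c2a at -0.80, the beta catalytic subunit Pik3cb at -0.78, the kinase Pdpk1, which activates Akt, at -0.66, and the phosphatase Inpp4b at -0.63. The inhibitory adaptor Dok3 was the 1 gene at least 25% higher, at 0.67 (0.50 to 0.83). Others were above 0 but within the fold. With TMM scaling 8 were lower and 2 higher, beside 22.9% and 19.3% of all genes.

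Between neutrophils and microglia of the Disc1 LI/LI library, 14 of the 54 genes had at least 50 CPM, and 6 were at least 2-fold lower and 1 higher, beside 53.7% and 14.5% of all genes. Inpp4b was lowest with a log2 ratio of -4.38, from 90.9 to 4.36 CPM. The adaptor Dok1 (-2.88), the kinase Tec (-1.90), and the exchange factors Vav1 (-1.56) and Prex1 (-1.34), which act on Rac, were also lower. Hcst (DAP10), a receptor adaptor that binds PI3K in lymphoid and myeloid cells, was higher, at 249 CPM against 47.0 CPM and a log2 ratio of 2.40. TMM scaling left 2 of the 14 lower and 3 higher, beside 21.5% and 28.8%. In the Disc1 WT/WT library 22 genes were compared, with 6 lower and 4 higher, beside 47.7% and 13.5% of all genes, and Vav3 was highest, at 61.5 CPM in neutrophils and 1.19 CPM in microglia. Between other cells and microglia, 6 of 14 were lower and none higher in the Disc1 LI/LI library, beside 26.7% and 17.4% of all genes. In the Disc1 WT/WT library 2 of 19 were lower and 1 higher, Hcst, beside 15.5% and 10.6%. TMM scaling gave 2 lower and 2 higher of 14, beside 18.8% and 25.1%, and the same 2 and 1 of 19, beside 12.4% and 11.9%.

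The genes whose levels ran most alike with each of the 7 were taken over 9 points, the microglia and neutrophils of both libraries and the 5 groups of other cells, among 5098 genes with at least 50 CPM in 1 of them. Pearson's r of log2(CPM + 1) was highest for Rin2 with Pik3cg (0.989), Tspan7 with Inpp5d (0.984), Abhd6 with Pik3ap1 (0.978), Abcg2 with Pik3r1 (0.977), Cd151 with Pik3ca (0.952), Tln1 with Pik3cd (0.948) and Mpc1 with Pik3r5 (0.892). The points share libraries and depth and are few, so the values only describe these groups. Among the 7 genes themselves, r was highest for Inpp5d with Pik3ap1 (0.875) and near 0 for Pik3ap1 with Pik3cd (-0.00676) and Pik3r5 (-0.0152).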

How the data were processed

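Droplet single-cell RNA sequencing counts of 2 libraries were used, 1 per genotype, assigned from the sample labels. The deposited values are raw counts of UMIs for each gene in each cell barcode. The authors produced them with Cell Ranger 6.1.2 (file header) and STAR on mm10 per the submitters' processing notes. Cells with fewer than 200 genes or over 10% mitochondrial UMIs were left out, 6 and 17 per library. Doublets were not called, and leaving out the 5% of cells with the most UMIs per class was tried instead. Counts were summed per class and library and divided by the total to give CPM. Intervals are exact Poisson, binomial (Clopper-Pearson) or conditional binomial intervals and cover counting error only. No test was run, since each genotype is 1 library. Called means at least 20% lower or 25% higher between genotypes, or 2-fold between classes. The background is genes with at least 50 CPM in either side. TMM factors came from edgeR 4.0.16 (R 4.3.3). Other steps used Python 3.11.15, numpy 2.4.6, scipy 1.17.1 and pandas 2.3.3. Interval coverage was tested on simulated Poisson counts, which hold no variation between cells, pools or libraries, so that check covers counting error only. The genes, the lists and the alternatives were chosen with earlier results of these data known. Other pathway genes were named where they passed the fold with at least 50 CPM, at most the 5 highest and 5 lowest per comparison, and 3 like genes were ranked per gene, of which the first is given. Gene coordinates are from GENCODE vM21 on mm10. Seurat 3.0.1, which the notes also name, was not used here.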

Additional observations from a re-analysis of the deposited data

How the results depend on the processing

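With TMM factors the count of the 7 genes past the fold went from 4 to 2 between genotypes in microglia, from 5 to 2 for lower levels in Disc1 LI/LI neutrophils and from 5 to 0 in Disc1 WT/WT neutrophils. The counts below, under other alternatives, have no share of all genes beside them. Between genotypes in microglia, a microglia limit of 0.25% gave 6 and one of 1% gave 3. Thinning to 1000 UMIs gave 3 in Disc1 WT/WT neutrophils. A microglia limit of 1% gave 0 for the other cells of the Disc1 WT/WT library, where the pathway genes past 2-fold also went from 3 to 0, while a limit of 0.25% gave 8 and cells without a microglia marker UMI (added after seeing the data) gave 10. With all genes of at least 10 UMIs counted in place of 50 CPM, the pathway genes past the fold were 29 between genotypes, 29 in neutrophils and 14 in other cells of the Disc1 WT/WT library, and 30 and 23 in those of the Disc1 LI/LI library, since more genes are then compared. Pik3cd turned from -0.37 to 0.26 between genotypes in microglia without a UMI of S100a8 or S100a9 (added after seeing the data), and the cause was not tested. No other ratio of the 7 genes past the fold changed direction under the alternatives run, while ratios of Pik3ca, Pik3cd and Pik3r5 within the fold turned under some. No paired analysis was possible because each genotype is 1 library. Depth limits the Disc1 WT/WT neutrophils most, with 12 UMIs of Pik3ca and 16 of Pik3r5 in them.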
